A study of Mus musculus with 2 samples.

Results

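The immediate early response genes described here are 10 genes taken by symbol from the gene tables of both libraries: Fos, Fosb, Jun, Junb, Atf3, Egr1, Ier2, Ier3, Dusp1 and Zfp36. They are 10 of 43346 annotated genes, and their transcripts were taken from the matching transcript tables. The study measured polyA RNA from tissue labelled large intestine of the inbred mouse strain C57BL/6J, taken from adults aged 8 weeks. It has 1 group of 2 biological replicates, each labelled as a pool of male and female littermates and recorded as a separate biosample under a single donor record. No genotype, treatment or time course is given in the labels, so the values describe levels in the tissue and how far replicate 2 lay from replicate 1.

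Immediate early genes are transcribed within minutes of a stimulus such as a growth factor or stress, from transcription factors that are already present and without new protein synthesis. Fos and Jun proteins pair through leucine zippers into the dimeric transcription factor AP-1, and Atf3 belongs to the same wider class of leucine zipper proteins. Other immediate early genes encode proteins that end the response, such as the phosphatase Dusp1 and the RNA-binding protein Zfp36. In the gut these genes are known to respond to injury, microbial products and growth factor signals, and also to tissue dissociation.

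Replicate 2 was sequenced to 58233142 expected counts, 55655330 of them on genes, and replicate 1 to 50189619, with 48724618 on genes. Over 17116 genes with at least 20 counts, 65.4% differed between the libraries beyond the 95% limit of a chi-square test per gene, where sampling alone gives 5%. Counts were therefore not those of 1 library deposited under both names. The libraries went against their labels in sex-linked genes and in part of the tissue markers. Xist, which is transcribed from the inactive X chromosome of females, had 12563 counts in replicate 2 and 17 in replicate 1, while 4 Y-linked genes together had 3 counts in replicate 2 and 2741 in replicate 1, although each library is labelled as a pool of both sexes. Of 7 markers of colonocytes, 5 had a mean below 1 TPM (a level corrected for transcript length and library size), among them Car1 at 0.27 TPM in replicate 2, against 0.23 in replicate 1, and the other 2 were Car4 at 141.3 TPM in replicate 2, against 117.4 in replicate 1, and Slc26a3 at 20.96 TPM in replicate 2, against 43.5 in replicate 1. The 7 summed to 162.6 TPM in replicate 2, against 161.2 in replicate 1, with Slc26a3 at least 2-fold lower in replicate 2 by TPM and none by TMM. The 8 markers of small intestine enterocytes summed to 8862 TPM in replicate 2, against 9724 in replicate 1. All 8 of those enterocyte markers lay at least 2-fold apart by TPM, 6 lower and 2 higher in replicate 2. By TMM 5 were at least 2-fold lower and 2 higher, with Apoa1 just within 2-fold at a log2 ratio of -0.986. Fabp6, an ileal bile acid binding protein, was at 5279 TPM in replicate 2, against 477 in replicate 1, and Apoa4, a lipoprotein component, at 91.1 TPM in replicate 2, against 1094 in replicate 1. The levels of Xist, of Y-linked genes and of the enterocyte markers thus moved together with the replicate number, and their part in the results was not tested. Every difference between the libraries given here is 1 library against 1, with no p-value. In bulk tissue, fewer cells of a type and less RNA per cell cannot be told apart.

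All 10 genes reached a mean of 1 TPM, and 9 lay at 1 TPM or more in both libraries, Fosb being at 0.83 TPM in replicate 2. Together they summed to 306.5 TPM in replicate 2, against 464.7 in replicate 1, a mean of 385.6 ± 112 TPM (SD, n = 2). Zfp36 had the highest mean level at 120.7 ± 24.0 TPM, followed by Fos at 76.8 ± 54.8 and Junb at 75.8 ± 16.0 TPM (SD, n = 2 each). The next were Ier2 at 26.8 ± 7.83, Jun at 26.5 ± 8.29, Dusp1 at 22.1 ± 4.5 and Atf3 at 18.9 ± 11.1 TPM. The lowest were Ier3 at 9.08 ± 0.64, Egr1 at 6.89 ± 0.13 and Fosb at 2.10 ± 1.80 TPM. In this order the ranges of neighbours overlapped for 5 pairs, from Zfp36 to Junb and from Ier2 to Atf3. They did not overlap between Junb and Ier2, Atf3 and Ier3, Ier3 and Egr1, or Egr1 and Fosb. Among the 12949 genes at 1 TPM or more in both libraries, Zfp36 stood at percentile 92.4 of the mean level, Fos at 88.1 and Junb at 87.9, while Egr1 stood at 35.6. Fosb, which is not among those, stood at percentile 12.6 of all genes with a mean of at least 1 TPM.

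**Figure D1:**
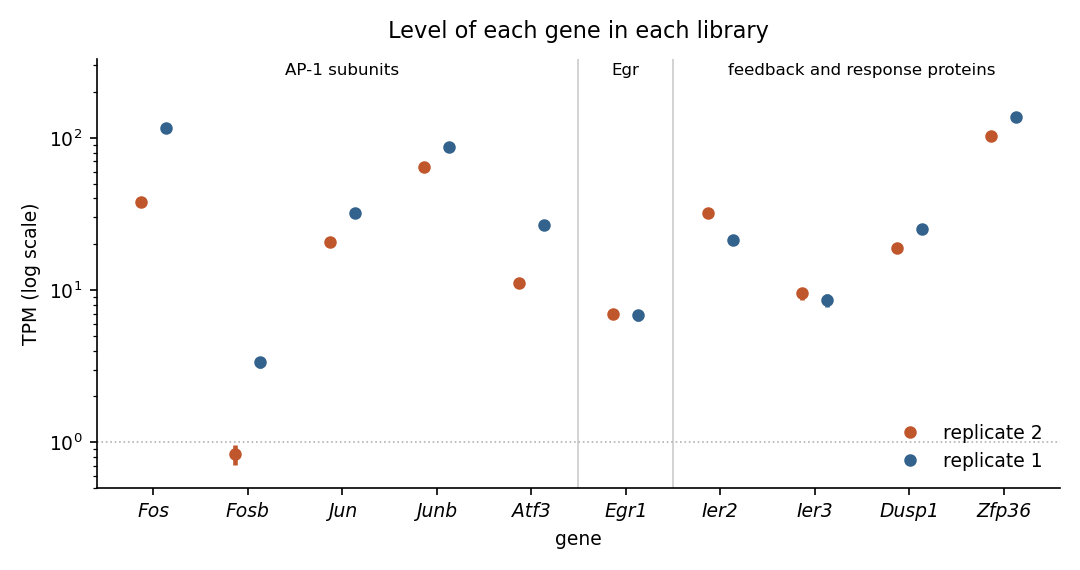
Level of each of the 10 genes in TPM on a log axis, replicate 2 in orange and replicate 1 in blue, 1 point per library. Bars are the lower and upper TPM bounds in the deposited tables, smaller than most points, and the dotted line marks 1 TPM. Fos, Fosb and Atf3 show the widest gaps, and the points of Egr1 lie nearly level, at 6.98 TPM in replicate 2, against 6.8 in replicate 1.

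Across the libraries 3 of the 10 genes, Fos, Fosb and Atf3, were at least 2-fold lower in replicate 2, and 0 were at least 2-fold higher. Of 13512 genes with a mean of at least 1 TPM, 4.46% were at least 2-fold lower, 1.18% at least 2-fold higher and 5.64% apart in either direction. Ratios were taken on a log2 scale as TPM + 1 of replicate 2 over TPM + 1 of replicate 1, so that the differences of low genes are understated. Fosb reached the mean of 1 TPM only through replicate 1, at 3.37 TPM, against 0.83 in replicate 2. At a mean of at least 10 TPM, 2 of the 10 genes, Fos and Atf3, were counted as 2-fold apart. The median log2 ratio of the 10 genes was -0.42, and that of all genes was -0.14. With expected counts scaled by TMM, a method that sets the bulk of genes equal, these medians were -0.25 and 0.01. By TMM Fos, Fosb and Atf3 were again at least 2-fold lower in replicate 2, beside 3.73% of all genes, and 0 were at least 2-fold higher, beside 2.26%, with 5.99% of all genes apart in either direction. The split of all genes apart by 2-fold changed with the scaling, with 603 lower and 159 higher by TPM and 504 lower and 305 higher by TMM. Below replicate 1 lay 7 of the 10 genes under both scalings, beside 66.5% of all genes by TPM and 48.5% by TMM. The lower and upper bounds deposited with each TPM did not overlap for 8 of the 10 genes, all but Egr1 and Ier3, beside 56.9% of all genes.

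**Figure D2:**
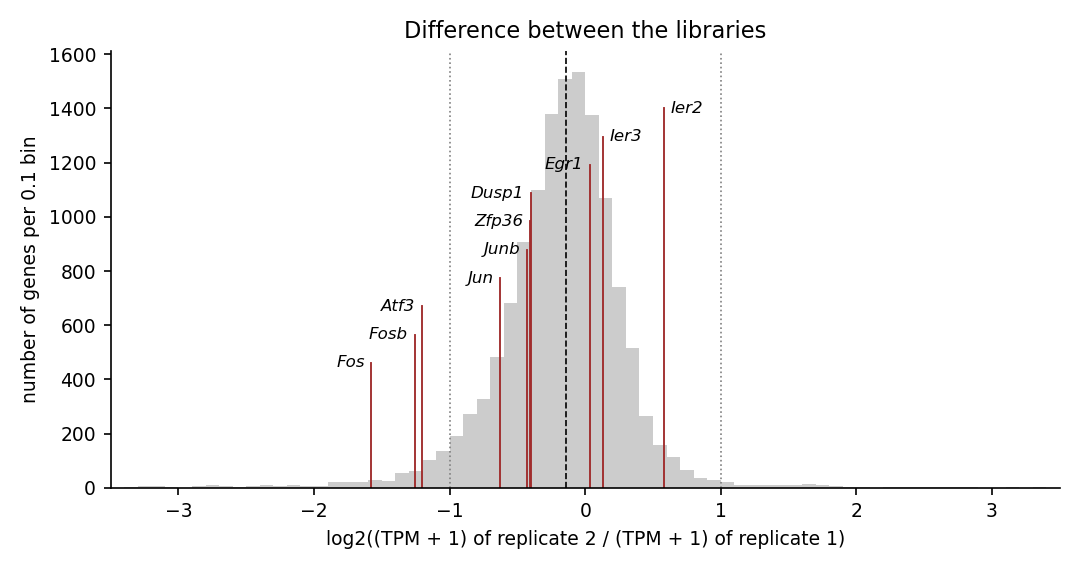
Histogram of the log2 ratio of replicate 2 over replicate 1 on TPM + 1 for all genes with a mean of at least 1 TPM, in bins of 0.1, with the 10 genes as red lines of arbitrary height. The axis is cut at -3.5 and 3.5, so genes beyond are not shown. The dashed line is the median of all genes at -0.14 and the dotted lines mark 2-fold. Fos, Fosb and Atf3 lie left of the lower line, and Ier2 at 0.58 lies farthest to the right of the 10.

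The 5 AP-1 subunits among the 10 genes, Atf3 of the wider class included, were all lower in replicate 2, under TPM and under TMM. Of all genes, 66.5% lay below replicate 1 by TPM and 48.5% by TMM. Fos, the founding subunit of its family, on chromosome 12 from 85473890 to 85477273 of build mm10 on the plus strand (ENSMUSG00000021250.9), had 38.1 TPM in replicate 2, from 3956 expected counts, against 115.5 TPM in replicate 1, from 9158. Its log2 ratio was -1.58 on TPM + 1 and -1.42 by TMM, with an exact 95% binomial interval of -1.47 to -1.37 that covers counting error only. Of all genes tested, 1.45% had a lower ratio than Fos. The Fos level in replicate 1 was 3.03 times that in replicate 2.

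Fosb, a second Fos protein (chromosome 7, 19302696 to 19310051, minus strand, ENSMUSG00000003545.2), had 0.83 TPM in replicate 2 from 169 counts, against 3.37 TPM in replicate 1 from 528. Its TMM log2 ratio was -1.85, with a counting interval of -2.11 to -1.60, and its ratio on TPM + 1 was -1.26, since the added 1 TPM weighs on so low a gene. Atf3, a stress-responsive transcription factor (chromosome 1, 191170296 to 191218039, minus strand, ENSMUSG00000026628.9), had 11.1 TPM in replicate 2 from 1132 counts, against 26.8 TPM in replicate 1 from 2099. The log2 ratio on TPM + 1 was -1.20, and -1.10 by TMM with an interval of -1.21 to -0.996. Both genes thus lay lower in replicate 2 by more than counting error, as Fos did.

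The Jun genes lay closer together. Jun, the partner of Fos in the classical AP-1 dimer (chromosome 4, 95049034 to 95052222, minus strand, ENSMUSG00000052684.4), had 20.6 TPM in replicate 2 from 3539 counts, against 32.3 TPM in replicate 1 from 4258. Its log2 ratio was -0.63, and -0.48 by TMM with an interval of -0.54 to -0.41. Junb, a Jun protein that can restrain Jun (chromosome 8, 84974484 to 84978718, minus strand, ENSMUSG00000052837.5), had 64.5 TPM in replicate 2 from 6060 counts, against 87.2 TPM in replicate 1 from 6278. On the log2 scale the ratio was -0.43, and -0.26 by TMM with an interval of -0.31 to -0.21. Both are below 2-fold, and 12.8% of all genes had a lower ratio than Jun and 23.5% a lower ratio than Junb.

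Promoter windows from RefSeq (build GRCm38.p6, 250 bases before to 50 after the start) were matched for 8 of the 10 genes: Fos, Fosb, Jun, Junb, Atf3, Ier3, Dusp1 and Zfp36. Those of the 3 genes more than 2-fold apart and of Dusp1 are printed, 5′ to 3′ on the gene's strand, the first for their difference and Dusp1 for its 3 matches to TGACG, the core of the cyclic AMP response element, the highest number in the 8 windows. Capitals mark TGACG on either strand, read as CGTCA where it is on the other one, and the TATA box letters TATAAA on the gene's strand. The windows are chr12:85473640-85473939 on the plus strand for Fos, and on the minus strand chr7:19309996-19310295 for Fosb, chr1:191183284-191183583 for Atf3 and chr17:26508423-26508722 for Dusp1.
Fos: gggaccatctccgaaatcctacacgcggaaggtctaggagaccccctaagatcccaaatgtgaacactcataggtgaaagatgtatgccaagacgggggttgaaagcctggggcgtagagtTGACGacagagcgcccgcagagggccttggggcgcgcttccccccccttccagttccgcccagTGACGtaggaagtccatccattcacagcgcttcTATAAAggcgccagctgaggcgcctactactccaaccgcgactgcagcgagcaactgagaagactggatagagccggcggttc
Fosb: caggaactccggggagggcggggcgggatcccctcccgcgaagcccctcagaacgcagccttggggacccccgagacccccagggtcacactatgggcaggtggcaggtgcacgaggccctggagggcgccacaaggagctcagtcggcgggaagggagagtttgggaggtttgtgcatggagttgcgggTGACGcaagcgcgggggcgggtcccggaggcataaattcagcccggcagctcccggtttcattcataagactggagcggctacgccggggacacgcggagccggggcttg
Atf3: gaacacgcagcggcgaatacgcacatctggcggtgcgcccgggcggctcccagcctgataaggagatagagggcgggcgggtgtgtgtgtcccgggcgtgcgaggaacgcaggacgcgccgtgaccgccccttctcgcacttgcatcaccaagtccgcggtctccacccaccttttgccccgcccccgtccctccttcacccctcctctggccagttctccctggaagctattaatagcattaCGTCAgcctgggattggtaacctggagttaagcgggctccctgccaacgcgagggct
Dusp1: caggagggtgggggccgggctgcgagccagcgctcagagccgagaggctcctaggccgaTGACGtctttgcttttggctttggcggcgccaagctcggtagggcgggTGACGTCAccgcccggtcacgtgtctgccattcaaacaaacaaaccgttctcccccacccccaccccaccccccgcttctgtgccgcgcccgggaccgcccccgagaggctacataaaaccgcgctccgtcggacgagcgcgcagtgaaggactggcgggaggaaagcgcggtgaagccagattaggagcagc
The TGACG core began 129 and 66 bases upstream of the start in Fos, 60 in Fosb, 106 in Junb and 7 in Atf3, the last on the other strand. In Dusp1 it began 191, 143 and 140 bases upstream, the last 2 overlapping on opposite strands as the palindrome TGACGTCA. In all, 5 of the 8 windows held the core on either strand, beside 20.8% of 32841 mouse windows of the same length, and 1.79% of those held the whole palindrome. The 32841 windows were not matched to the 8 in base composition and not restricted to genes expressed here. TATAAA stood in Fos, 33 bases upstream, and in Junb, where it began at the RefSeq start itself, beside 8.32% of all windows. The Junb gene of GENCODE M21 begins downstream of that start, at 84978718. The CArG box, the site that serum response factor is known to bind, was found in Zfp36 alone of the 8, beside 1.63% of all windows, searched like the next motifs on both strands. Egr1 and Ier2 had no window, and bases more than 250 upstream were not searched, so sites there would be missed. The Egr site, GCGGGGGCG or GCGTGGGCG, was found in Fosb and Zfp36, beside 3.47% of all windows. The AP-1 site, TGACTCA or TGAGTCA, was found in 0 of the 8, beside 5.2%. Only these exact letters were searched, so variant forms such as TGACATCA, which the Jun window holds, were not counted. Genes with the TGACG core lay on both sides of 2-fold, Fos, Fosb and Atf3 beyond it and Junb and Dusp1 within it. A match of letters does not show a bound site.

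Egr1, a zinc finger transcription factor that serum and growth factors induce (chromosome 18, 34859823 to 34864984, plus strand, ENSMUSG00000038418.7), had 6.98 TPM in replicate 2 from 1155 counts, against 6.8 TPM in replicate 1 from 886. The log2 ratio on TPM + 1 was 0.03, and 0.17 by TMM with an interval of 0.05 to 0.30. The libraries therefore agreed on Egr1 to well within 2-fold. Fos lay at 5.45 times the Egr1 level in replicate 2 and at 17.0 times in replicate 1, on the TPM scale.

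The 4 genes for feedback and short-lived response proteins lay on both sides of 0. Zfp36, which binds AU-rich elements in 3′ untranslated regions and promotes decay of the RNA (chromosome 7, 28376784 to 28380253, minus strand, ENSMUSG00000044786.5), had 103.7 TPM in replicate 2 from 9457 counts, against 137.6 TPM in replicate 1 from 9621. Its log2 ratio was -0.40, and -0.23 by TMM with an interval of -0.28 to -0.19. Dusp1, a phosphatase that inactivates MAP kinases (chromosome 17, 26505590 to 26562128, minus strand, ENSMUSG00000024190.6), had 18.9 TPM in replicate 2 from 1846 counts, against 25.3 TPM in replicate 1 from 1841. On the log2 scale the ratio was -0.40, and -0.21 by TMM with an interval of -0.30 to -0.11. For these 2 genes the replicate 2 level was lower by less than 1.5-fold.

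Ier2, a short-lived nuclear protein (chromosome 8, 84661331 to 84662852, minus strand, ENSMUSG00000053560.4), had the highest ratio of the 10. It had 32.3 TPM in replicate 2 from 2444 counts, against 21.3 TPM in replicate 1 from 1232, with a log2 ratio of 0.58, and 0.78 by TMM with an interval of 0.68 to 0.88. Its ratio stood at percentile 96.9 of all genes. Ier3, a regulator of cell survival (chromosome 17, 35821684 to 35822923, plus strand, ENSMUSG00000003541.6), had 9.53 TPM in replicate 2 from 505 counts, against 8.63 TPM in replicate 1 from 351, and its deposited bounds overlapped. The log2 ratio on TPM + 1 was 0.13, and 0.32 by TMM with an interval of 0.12 to 0.52. Fos was at 1.18 times the Ier2 level in replicate 2 and at 5.43 times in replicate 1, so Fos and Ier2 did not keep a fixed ratio to each other.

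AU-rich elements, the targets of Zfp36 in its own and other RNAs, were read in the 3′ untranslated regions of the transcript with the highest mean TPM of each gene (GENCODE M21, mm10). The 9-letter element TTATTTATT was found in 3 of the 10 genes, once each in Fos and Zfp36 and at 2 places in Dusp1, and these sites are printed with the element in capitals.
Fos: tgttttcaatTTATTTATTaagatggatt
Zfp36: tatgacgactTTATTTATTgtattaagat
Dusp1, first: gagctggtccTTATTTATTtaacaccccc
Dusp1, second: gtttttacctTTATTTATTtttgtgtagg
They lie at chr12:85477103-85477131 on the plus strand for Fos and, on the minus strand, at chr7:28376951-28376979 for Zfp36 and at chr17:26506159-26506187 and chr17:26505870-26505898 for Dusp1. Of 12093 coding genes 6.47% held the element, and of the 5732 whose 3′ untranslated region was in the range of the 10 genes, 485 to 2145 nt, 6.04% did. The shorter element ATTTA, which lies within the longer one, was more frequent than the median of 1.08 per kilobase in 8 of the 10 genes. It was absent from the 755 nt of Ier2, and Fosb held 1 in 2145 nt. Of the 3 genes with TTATTTATT, Fos was more than 2-fold lower in replicate 2 and Zfp36 and Dusp1 were not.

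Within the Fos and Jun genes, which summed to 308.3 TPM in replicate 2, against 440.7 in replicate 1, the make-up differed between the libraries. Fos held 12.3% of that sum in replicate 2 and 26.2% in replicate 1, and Jund, a Jun gene that is expressed without a stimulus, held 51.2% in replicate 2 and 34.8% in replicate 1. Junb held 20.9% in replicate 2 and 19.8% in replicate 1, and Jun 6.68% in replicate 2 and 7.34% in replicate 1. The Fos genes together were at 0.269 times the Jun genes in replicate 2 and at 0.615 times in replicate 1. Jund itself was at 157.9 TPM in replicate 2, against 153.4 in replicate 1, so its share moved with the level of the others.

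In the other families the leading member was the same in both libraries except among the Ier genes. Egr1 held 63.1% of the summed TPM of the Egr genes in replicate 2 and 64.2% in replicate 1, and Zfp36 held 62.7% in replicate 2 and 56.7% in replicate 1 of the Zfp36 genes. Dusp1 held 18% in replicate 2 and 17.3% in replicate 1 of the MAP kinase phosphatase genes, where Dusp6, which acts on ERK, led with 39.5% in replicate 2 and 39.0% in replicate 1. Among the Ier genes Ier2 led in replicate 2 with 49.7%, against 34.1% in replicate 1, and Ier5 led in replicate 1 with 47.8%, against 31.9% in replicate 2.

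**Figure D3:**
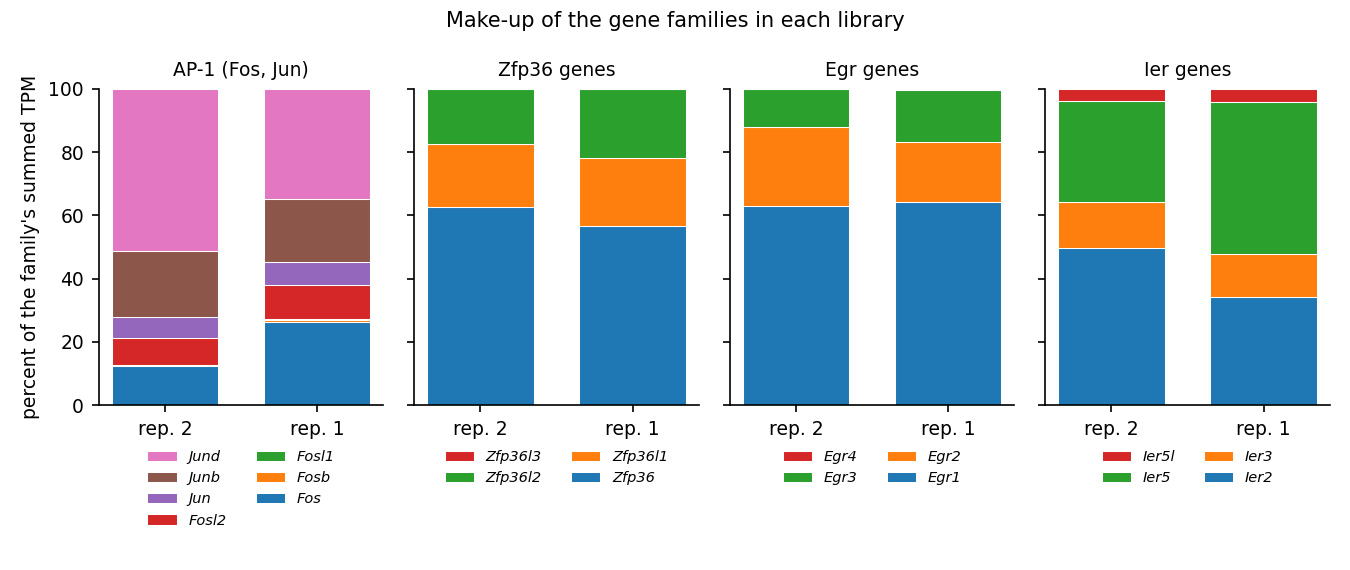
Percent of the summed TPM of each family that each gene held, with replicate 2 left of replicate 1 in each panel and 1 stacked bar per library. Jund takes 51.2% of the AP-1 bar in replicate 2 and 34.8% in replicate 1, and Fos takes 12.3% in replicate 2 and 26.2% in replicate 1.

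Of the 10 genes, 6 had 1 transcript in the deposited tables and 4 had several. The coding transcript of Fos held 92.8% of Fos TPM in replicate 2 and 92.1% in replicate 1, so the lower Fos level in replicate 2 came with nearly the same make-up of transcripts. A single coding transcript of Atf3 held 100% in both libraries. For Egr1 the transcript of 3036 nt held 97.0% in replicate 2 and 91.7% in replicate 1, and one of 4484 nt, with the same coding length of 1599 nt, held the rest. For Dusp1 the coding transcript held 89.5% in replicate 2 and 80.3% in replicate 1, and 2 retained-intron transcripts held 10.6% in replicate 2 and 19.7% in replicate 1, or 1.99 TPM in replicate 2, against 4.97 in replicate 1. Among 3886 genes with a mean of at least 5 TPM and a retained-intron transcript, the median share of such transcripts was 5.22% in replicate 2 and 7.89% in replicate 1. It was lower in replicate 2 for 67.9% of those genes, so the direction seen in Dusp1 was that of most genes. The size was not, since the median difference over those genes, replicate 2 minus replicate 1, was -0.925 percentage points. Fosb had 1 transcript in the tables and 7 in GENCODE M21, so its splice forms were not separated. The Zfp36 transcript is 1792 nt long in the deposited tables and 2790 nt in GENCODE M21, and its TPM rests on the shorter length.

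**Figure D4:**
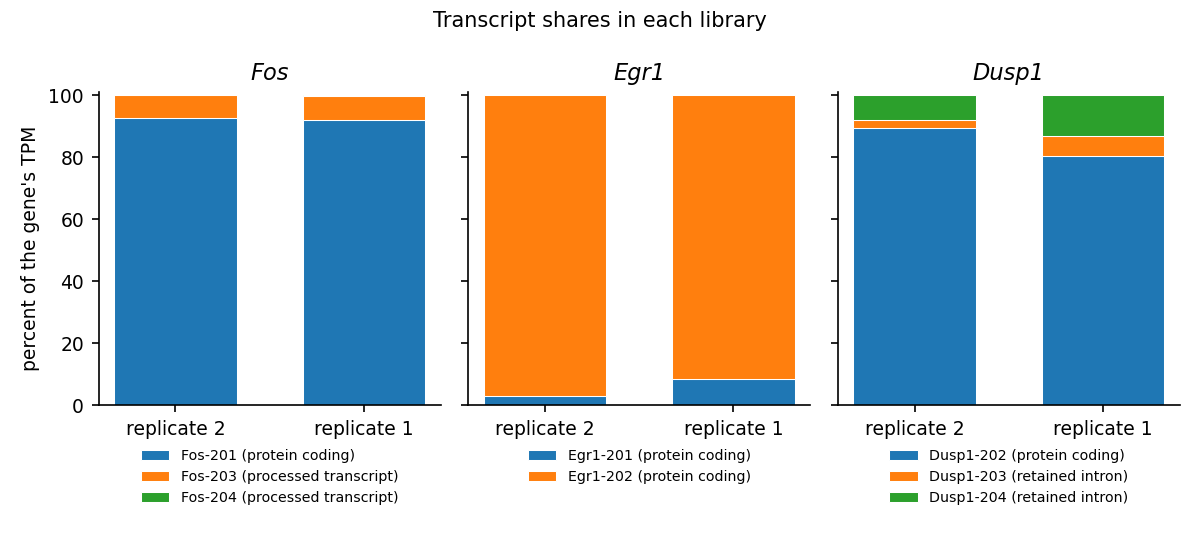
Percent of each gene's TPM held by its transcripts for Fos, Egr1 and Dusp1, replicate 2 left of replicate 1, 1 stacked bar per library, with transcript types from the annotation. The coding transcript of Dusp1 reaches 89.5% in replicate 2 and 80.3% in replicate 1, while the Fos bars are nearly the same.

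The transcript of Jun shares 232 nt of exon with the antisense RNA Junos on the opposite strand, which was at 0.47 TPM in replicate 2, against 0.69 in replicate 1. The libraries are labelled as stranded, but no source used here says whether the counting used strand, so reads from these 232 nt may come from either gene. The spans of Junb and Dusp1 in GENCODE M21 reach into Prdx2 and Ergic1 on the opposite strand. Their transcripts in the deposited tables, at 84976910 to 84978718 for Junb and 26505590 to 26508519 for Dusp1, share 0 nt of exon with those genes.

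Of 32 other immediate early genes tested, 3 were at least 2-fold lower in replicate 2, beside 4.46% of all genes, and 0 were higher, with a median log2 ratio of -0.31. By TMM 1 of the 32 was at least 2-fold lower, beside 3.73% of all genes. Sgk1, a kinase that glucocorticoids and mineralocorticoids induce, had 27.3 TPM in replicate 2, against 96.5 in replicate 1, a log2 ratio of -1.78 and -1.51 by TMM. Klf4, a transcription factor of differentiated gut epithelium, had 61.5 TPM in replicate 2, against 139.8 in replicate 1, and Mcl1, a survival protein, 25.1 TPM in replicate 2, against 58.7 in replicate 1. The 1 gene by TMM was Sgk1, Klf4 being at -0.94 and Mcl1 at -0.41. Rhob, a small GTPase, had 87.9 TPM in replicate 2, against 100.3 in replicate 1, and Nfkbia, an inhibitor of NF-kappa-B, had 88.6 TPM in replicate 2, against 93.8 in replicate 1, its log2 ratio being -0.08 by TPM and 0.09 by TMM.

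Of 9 other AP-1 subunits tested 0 were 2-fold apart, with a median log2 ratio of -0.07. The highest were Jund, Batf2 at 100.6 TPM in replicate 2, against 110.6 in replicate 1, and the Fos gene Fosl2 at 26.3 TPM in replicate 2, against 48.5 in replicate 1. Of 5 other Egr and Nr4a genes tested 0 were 2-fold apart, with a median of -0.03, and Nr4a1, an orphan nuclear receptor, had 6.70 TPM in replicate 2, against 5.30 in replicate 1. The other 2 tested Zfp36 family genes had 32.8 TPM in replicate 2, against 52.1 in replicate 1, for Zfp36l1, and 28.9 TPM in replicate 2, against 53.0 in replicate 1, for Zfp36l2. Of 8 other MAP kinase phosphatases tested 0 were 2-fold apart, with a median of -0.44, and Dusp6 had 41.5 TPM in replicate 2, against 56.8 in replicate 1.

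Of 21 factors and kinases upstream of these genes 0 were 2-fold apart, with a median log2 ratio of -0.21 beside -0.14 for all genes, and Mapk3, which encodes ERK1, had 405.1 TPM in replicate 2, against 368.9 in replicate 1. Of 10 heat shock genes, which respond to protein damage, 0 were 2-fold apart, and their median was 0.08 by TPM and 0.36 by TMM. Hspa8, the constitutive HSP70 chaperone, had 2387 TPM in replicate 2, against 1996 in replicate 1. Of 12 housekeeping genes 0 were 2-fold apart, with a median of -0.22, and Actb had 6666 TPM in replicate 2, against 6818 in replicate 1.

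**Figure D5:**
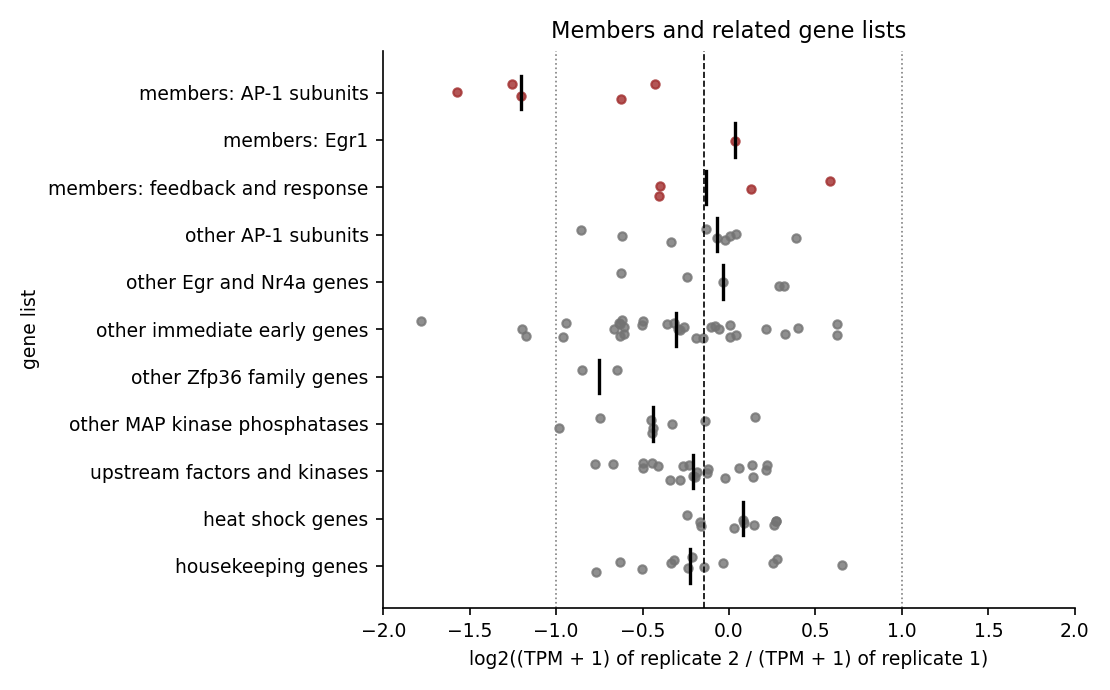
Log2 ratio of replicate 2 over replicate 1 on TPM + 1 for each gene of the related lists, 1 point per gene with a mean of at least 1 TPM, the 10 genes in red and the other lists in grey. Short black lines are list medians, the dashed line is the median of all genes and the dotted lines mark 2-fold. The 5 AP-1 subunits among the 10 genes have a median of -1.20, and the 9 other AP-1 subunits one of -0.07.

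Some cell type markers also differed between the libraries, while most lists held no gene apart by 2-fold. The 8 epithelial markers summed to 10560 TPM in replicate 2, against 11844 in replicate 1, with Vil1 and Krt20 at least 2-fold lower in replicate 2 by TPM and 0 of 8 by TMM. The 8 smooth muscle markers summed to 3806 TPM in replicate 2, against 3248 in replicate 1, with 0 of 8 apart. By TPM 6 of these 8 were higher in replicate 2 and 2 were lower. The 6 mast cell markers summed to 15.9 TPM in replicate 2, against 78.4 in replicate 1, with Mcpt1 and Mcpt2 the 2 of 3 tested that were at least 2-fold lower. The third tested, Kit, lay nearly level, at 9.45 TPM in replicate 2, against 9.35 in replicate 1. Mcpt1, a mucosal mast cell protease, was at 5.01 TPM in replicate 2, against 55.5 in replicate 1, and Cpa3 at 0.07 TPM in replicate 2, against 0.53 in replicate 1. The 6 plasma cell markers summed to 1067 TPM in replicate 2, against 1748 in replicate 1, and the 6 B cell markers to 140.8 TPM in replicate 2, against 91.0 in replicate 1, with 0 of 6 apart in each. Jchain made up most of the plasma cell sum, at 778 TPM in replicate 2, against 1479 in replicate 1. By TPM 5 of the 6 plasma cell markers were lower in replicate 2 and 1, Xbp1, was higher. The 6 macrophage markers summed to 212.9 TPM in replicate 2, against 240.7 in replicate 1, and the 6 T cell markers to 47.8 TPM in replicate 2, against 46.8 in replicate 1. Granulocyte markers summed to 2.30 TPM in replicate 2, against 4.75 in replicate 1, with 5 of 6 below a mean of 1 TPM and Elane at 0 in both. The 6 fibroblast, 6 blood endothelium, 4 tested enteric neuron and 4 tested erythrocyte markers held 0 genes apart by 2-fold. The part of these cell types in the differences of Fos, Fosb and Atf3 was not tested.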

How the data were processed

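PolyA RNA of 2 libraries of mouse tissue labelled large intestine was sequenced by the authors, per the labels with strand kept, in paired reads of 76 nt and from molecules over 200 nt. The authors deposited expected counts per gene and transcript, which were rounded to whole numbers for scaling. The deposited TPM and FPKM values, the deposited bounds on TPM (a signal column whose level is not stated) and the deposited percent of each gene's TPM per transcript were used unchanged. Tables are on build mm10 with GENCODE M4, per the submitters' notes; no source used here names the aligner or quantification program. Symbols, biotypes and positions came from GENCODE M21, matched without version, and promoter windows from RefSeq (GRCm38.p6). Junction and contig lists on another build were not used.

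Depth was 58233142 expected counts in replicate 2 and 50189619 in replicate 1, and the 10 genes had between 169 and 9621 counts per library. Log2 ratios of TPM + 1, replicate 2 over replicate 1, were taken over 13512 genes with a mean of at least 1 TPM, read at 2-fold with no p-value. Intervals are exact 95% Clopper-Pearson intervals on the rounded expected counts, shifted by the ratio of the TMM-scaled library totals, and cover counting error only. TMM came from edgeR 4.0.16 and size factors from DESeq2 1.42.0, in R 4.3.3, and the rest was run with scipy 1.17.1, pandas 2.3.3, numpy 2.4.6 and matplotlib 3.10.9 under Python 3.11.15. The ratio step was run on simulated counts with known folds and a fixed spread. That run checks the calculation only, and not the differences between these libraries. The 10 genes, the 25 gene lists (207 symbols, all matched) and the named genes were chosen with earlier results of these data known. The text names all 10 genes, and of the other lists some of the highest genes and those at least 2-fold apart, others being given as counts; Car1, Cpa3, Elane and Ier5 were also picked with their values known. Alternatives were other pseudocounts, thresholds and filters, FPKM, posterior means, TPM without mitochondrial genes and spike-ins, both scalings of counts, and leaving out each library.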

Additional observations from a re-analysis of the deposited data

How the results depend on the processing

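Each of the 10 genes kept its sign in all 8 settings of the ratio, and Fos, Fosb and Atf3 were at least 2-fold lower in replicate 2 in all 8. The log2 ratio ranged from -1.61 to -1.41 for Fos, from -2.02 to -1.13 for Fosb and from -1.27 to -1.04 for Atf3. The median log2 ratio of the 10 genes was -0.25 with FPKM, -0.25 with TMM and -0.24 with DESeq2 size factors, where that of all genes was 0.00, 0.01 and 0.02. The count of all genes at least 2-fold apart was 1193 with no pseudocount and 473 at a mean of at least 10 TPM, and 2371 genes were at least 1.5-fold apart. Of the 10 genes, 3, 2 and 4 were counted under these settings. Fewer than 13512 genes reached a mean of 10 TPM, so the count of 473 is over a smaller number of genes. Egr1 held 61.1% of the Egr genes by posterior means. With 1 library left out the summed level ranged from 306.5 to 464.7 TPM and the Fos share of the Fos and Jun genes from 12.3% to 26.2%. The difference between the libraries has no value with 1 library left out. No paired analysis was possible because the study has 1 group. With 2 libraries, depth limits the low gene Fosb most, at 169 counts in replicate 2.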
